A study of Mus musculus with 2 samples.

Results

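The genes described here are 9 members of the JAK-STAT signalling pathway, the kinase genes Jak1, Jak2 and Tyk2, the transcription factor genes Stat2, Stat5a and Stat6, and the feedback inhibitor genes Socs1, Socs2 and Cish. They were chosen by name, and every array probe carrying a member's symbol was taken. This gave 14 probes in 23 spots for 9 of the 34761 gene names on the array. Levels were read in CMT93, an established mouse carcinoma line labelled as rectal and of strain C57BL/ICRF, with an age of 19 months. The sample titles call it a colon carcinoma line. The control array held RNA of cells with no agent assigned to them, and the LPS array held RNA of cells given 3 µg/mL of lipopolysaccharide (LPS) for 24 h. LPS is a glycolipid of the Gram-negative outer membrane. Both groups were the same line in the same medium, with no allele or pretreatment named. The comparison asks which of these transcripts differ between LPS-treated and control cells.

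Cytokine receptors of this pathway have no enzymatic activity of their own and rely on Janus kinases (JAKs) bound to their cytoplasmic tails. On ligand binding the kinases phosphorylate the receptor, STAT proteins dock there through their SH2 domains, are phosphorylated in turn, pair up and enter the nucleus. SOCS proteins, including CIS (encoded by Cish), are made in response and close the loop by inhibiting the kinases, covering receptor docking sites or recruiting a ubiquitin ligase. In gut epithelium the pathway carries signals of interferons, interleukin-22, interleukin-4, interleukin-13 and growth hormone, among others. LPS itself acts through Toll-like receptor 4, which is not a JAK-coupled receptor.

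With 1 array per group the differences have no replicate check and no test was run, so precision is limited by the number of arrays. Values are processed spot intensities, and a log2 level is the log2 intensity minus the 75th percentile of its array, at an intensity of 649 in control cells and 629 in LPS-treated cells. The share of 59305 non-control spots that passed as well above background was 55.8% for control and 54.7% for LPS, with none saturated. A log2 difference is always LPS minus control, and the error after each ± is the SD of the log2 difference over repeated spots of probes of similar brightness. This SD was 0.15 for the dimmest 51 of 254 repeated probes and 0.027 for the brightest 51, and it covers the slide and not the cultures. In a bulk sample a smaller number of expressing cells cannot be told apart from less RNA per cell. Of the epithelial markers, 8 of 9 were measured, with the gut transcription factor gene Cdx2 not well above background on either array. Of 9 leukocyte markers, Cd3e, Csf1r, Itgam and Cd79a were measured, while Lyz2, Tyrobp and Laptm5 were well above background on neither array.

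All 14 member probes were well above background on both arrays, so every member could be compared. None of the 9 genes was at least 2-fold higher or lower, against 1.46% and 0.569% of 20394 measured genes. At 1.5-fold, 1 member was higher, Cish, where 3.59% of all measured genes were, and 1 was lower, Socs1, where 2.66% were. The median log2 difference of the members was 0.31, with 6 of 9 above 0. Over all measured genes the median was -0.02, with 44.6% above 0 and 55.4% below.

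**Figure D1:**
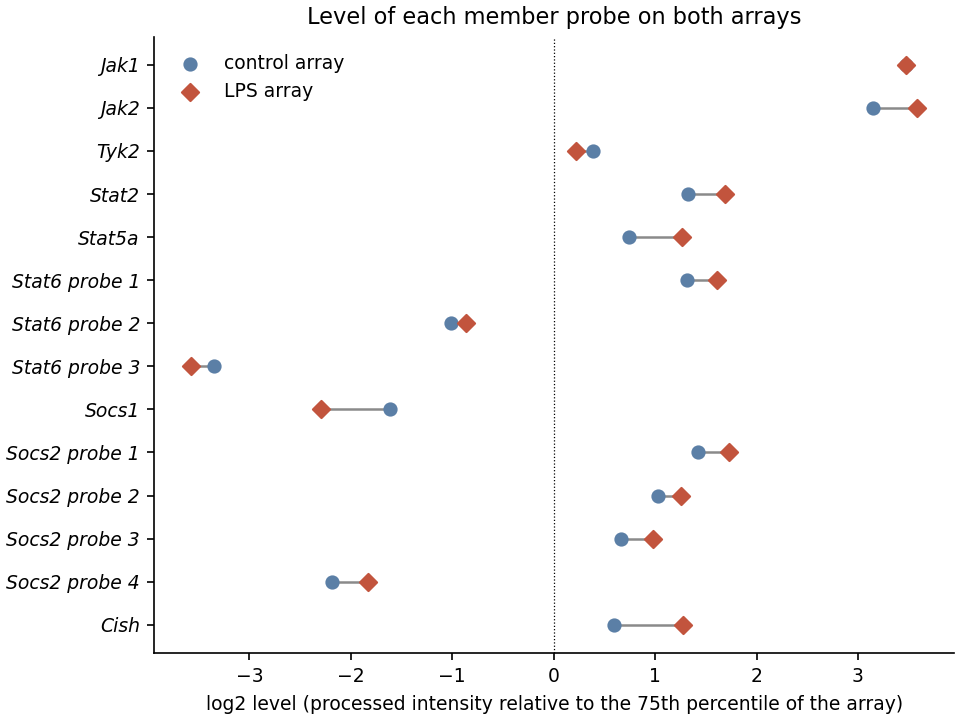
Log2 level of each of the 14 member probes on the control array (circles) and the LPS array (diamonds), relative to the 75th percentile of the array (dotted line at 0). Levels compare the arrays within a probe and not probes with each other, and the gap between symbols is widest for Socs1 and Cish, which run in opposite directions.

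The kinase genes did not share a direction. Jak1, which serves the interferon receptors and the gamma-chain and gp130 cytokine receptors, stood at an intensity of 7212 in control cells and 6979 in LPS-treated cells. After scaling these were log2 levels of 3.47 and 3.47, a difference of -0.0023 ± 0.027, so Jak1 was at the same level on both arrays within the spread between spots. Its probe is listed at chr4:100825094-100825153 (mm9) on the minus strand.

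Jak2, the kinase of the growth hormone, prolactin and erythropoietin receptors and of a chain of the interferon-gamma receptor, was higher on the LPS array. Its intensity was 5759.6 in control cells and 7559 in LPS-treated cells, a log2 difference of 0.44 ± 0.027, or 1.35-fold. The probe lies at chr19:29387487-29387546 (mm9), plus strand. Tyk2, the partner of Jak1 on the type I interferon receptor, was slightly lower, at 848 in control cells and 735 in LPS-treated cells. Its log2 difference was -0.16 ± 0.063, or 1.12-fold lower, from a probe at chr9:20909321-20909380 (mm9), minus strand. The gap between Jak2 and Jak1 was 0.44 ± 0.039 and that between Jak2 and Tyk2 was 0.60 ± 0.068, both larger than the spread between spots.

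On the brightest probe of each, the 3 STAT genes were higher on the LPS array, although the probes of Stat6 did not share a sign. Stat5a, which transmits growth hormone, prolactin and interleukin-2 family signals, differed most, with an intensity of 1086 in control cells and 1511 in LPS-treated cells. Its log2 difference was 0.52 ± 0.047, or 1.44-fold higher, just under the 1.5-fold line. The probe lies at chr11:100746373-100746432 (mm9), plus strand. Its close paralogue Stat5b, which lies outside the members, was at 0.11 ± 0.036 on the probe chosen for it and gave 0.13 on a further one. Stat5a thus stood 0.41 ± 0.059 above Stat5b, although the products carry largely the same signals.

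Stat2, whose product is part of the interferon-activated complex ISGF3 together with IRF9, stood at 1631 in control cells and 2034 in LPS-treated cells. Its log2 difference was 0.36 ± 0.047, or 1.29-fold higher, from a probe at chr10:127729834-127729893 (mm9), plus strand. Irf9 gave another value, at -0.07 ± 0.047.

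Stat6, the mediator of interleukin-4 and interleukin-13, is read by 3 probes, shown here since they did not share a sign. Coordinates are mm9 on the plus strand, and sequences are as listed in the deposited files, 5′ to 3′, whole for probes 2 and 3 and the first 30 of 60 bases for probe 1, with no bases singled out by capitals.
Stat6 probe 1 (chr10:127097689-127097748): tctgaaaggctgagacattgtataagacag
Stat6 probe 2 (chr10:127095694-127095753): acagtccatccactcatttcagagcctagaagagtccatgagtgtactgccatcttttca
Stat6 probe 3 (chr10:127083983-127084042): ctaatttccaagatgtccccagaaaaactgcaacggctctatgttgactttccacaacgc
The files place them at positions 3450, 2354 and 300 of 1 target transcript, so probe 3 reads the 5′ part and probe 1 the 3′ part.

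Probe 1 stood at an intensity of 1612 in control cells and 1925 in LPS-treated cells, a log2 difference of 0.30 ± 0.047. Probe 2 stood at 322 and 346, a difference of 0.15 ± 0.063, and probe 3 at 63.9 and 52.7, a difference of -0.23 ± 0.15. The direction of Stat6 therefore depends on the probe, with the 3′-most probe highest and the 5′-most probe below 0. The sign of probe 3 is unsure, since it was dim and its difference was only 1.58 times the repeated-spot SD. Labelled RNA was primed from the poly(A) tail, per the labels, and whether distance from the 3′ end plays a part was not tested. With the median over probes in place of the brightest probe, Stat6 stood at 0.15.

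The SOCS genes spanned the widest range, from the lowest to the highest of the 9 members. Cish, whose product CIS is a classic STAT5-induced inhibitor that covers STAT5 docking sites on receptors, stood at an intensity of 980.0 in control cells and 1519 in LPS-treated cells. Its log2 difference was 0.68 ± 0.047, or 1.60-fold higher. Socs1, whose product blocks JAK kinase activity directly and restrains interferon signalling, stood at 212 in control cells and 128 in LPS-treated cells. Its log2 difference was -0.68 ± 0.15, or 1.60-fold lower. The gap between Cish and Socs1 was 1.36 ± 0.15 on the log2 scale. With normexp, another background correction, Socs1 stood at -0.49, under 1.5-fold, so only Cish passed that line. The probes of both genes are single spots, and the first 30 of their 60 bases are shown to identify what was read, coordinates in mm9.
Cish probe (chr9:107204196-107204255, plus strand): actttagaaaacaagtgttagaacacaaga
Socs1 probe (chr16:10783951-10784010, minus strand): gagggtctctggcttcatttttctgctgtg

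**Figure D2:**
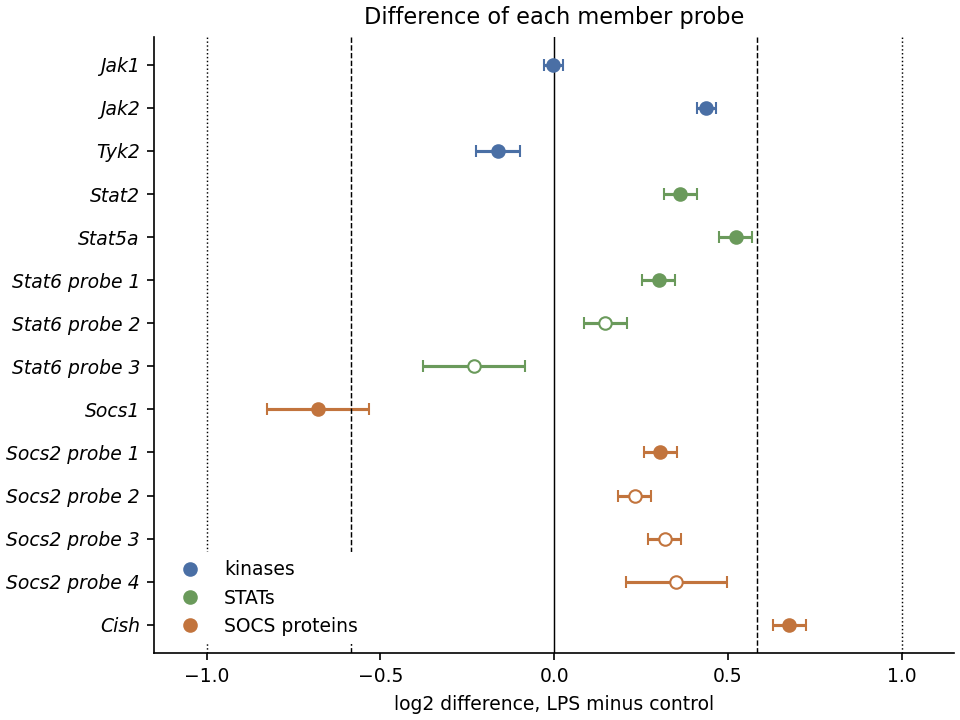
Log2 difference, LPS minus control, of each member probe, with bars of ± the SD over repeated spots of similar brightness (not over cultures). Filled points are the probes that stand for a gene, open points are further probes of Stat6 and Socs2, dashed lines mark 1.5-fold and dotted lines 2-fold, and no probe reaches 2-fold, with Cish at 0.68 and Socs1 at -0.68.

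Socs2, an inhibitor of growth hormone signalling that is also induced by STAT5, has the most direct error of the members, since its brightest probe is printed 10 times. On the control array the 10 spots ran from 1651 to 1828, with a median of 1755. On the LPS array they ran from 2021 to 2221, with a median of 2095. The log2 difference was positive in all 10 positions, from 0.25 to 0.44, with a mean of 0.31 and an SD of 0.056. How often other repeated probes had 1 sign in all positions was not counted. These spots share 1 labelled RNA per array, so they measure the slide and say nothing of the spread between cultures.

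**Figure D3:**
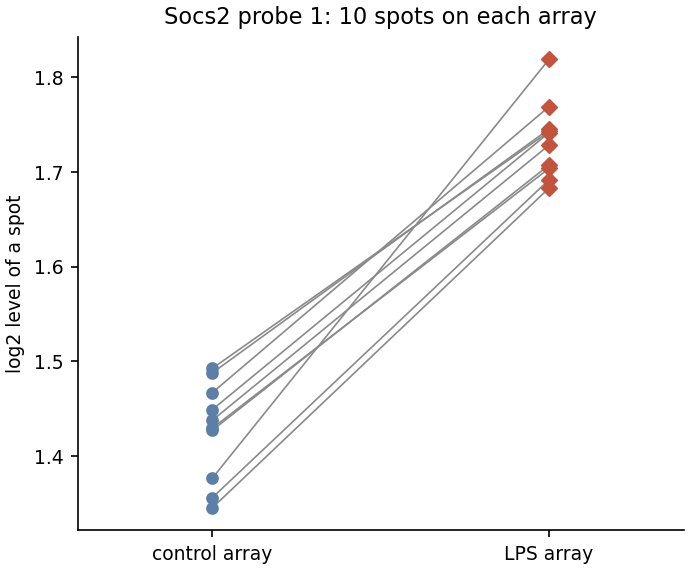
Log2 level of the 10 spots of Socs2 probe 1 on the control array (circles) and the LPS array (diamonds), with lines joining spots at the same position. Control spots lie between 1.35 and 1.49 and LPS spots between 1.68 and 1.82.

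Besides Socs2, only Stat6 has more than 1 probe, so accord between probes could not be read for the other members. The other 3 Socs2 probes gave the same sign as probe 1. All 4 lie on the minus strand of chromosome 10 (mm9) and are shown because they read stretches with up to 27403 bases between them. Probe 3 is shown whole and the others by their first 30 bases.
Socs2 probe 1 (chr10:94875066-94875125): aggtgtgaagatgtagctaggtattttaaa
Socs2 probe 2 (chr10:94875187-94875246): aaacacatgcctcatatagactatctccga
Socs2 probe 3 (chr10:94875468-94875527): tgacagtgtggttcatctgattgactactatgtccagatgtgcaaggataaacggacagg
Socs2 probe 4 (chr10:94848005-94848064): gccaatgctgacacaaagacaatctcttaa
Probe 2 stood at 1322 in control cells and 1504 in LPS-treated cells, a log2 difference of 0.23 ± 0.047. Probe 3 stood at 1028 and 1242, a difference of 0.32 ± 0.047. Probe 4, designed on an Ensembl transcript and lying farther downstream, stood at 143 and 177, a difference of 0.35 ± 0.15. The 4 differences lay within 0.12 of each other. Across the 82 pairs of member probes from different genes, the longest identical run was 11 bases, and no probe of another gene on the array shared a run of 30 bases with a member probe.

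Cish and Socs1 are both known feedback targets of the pathway, and their promoters are shown beside their opposite differences. RefSeq windows of 250 bases before to 50 after the start site (GRCm38.p6, a build other than the mm9 of the probes) were given for 8 of the 9 members, all but Socs2, with a pair of windows for Stat5a. They were searched on both strands for TTCNNNGAA, the gamma-activated site form that most STATs bind, and for TTC and GAA 4 bases apart, the wider form known for STAT6. Both read the same on either strand. Also searched were the core of the interferon-stimulated response element (ISRE), written as GAAA and GAAA 2 bases apart, and a loose NF-kB form, GGG and CC 5 bases apart. A match is a description of letters and not a binding site.

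TTCNNNGAA was found only in the Cish window among the members, with matches at positions 1 to 9 and 12 to 20 after the start site. It occurs in 8.30% of all 32851 windows, and 0.457% hold at least 2 matches. The ISRE core was found in the windows of Socs1 and Stat2, against 3.44% of all windows. Socs1 holds 2 overlapping matches at -83 to -74 and -77 to -68, as at least 2 do in 0.225% of windows. Stat2 holds 1 at -222 to -213, followed at -210 to -201 by the STAT6 form, which is in 6.95% of windows. The stretches are shown with these matches in capitals.
Cish, -150 to 30 (chr9:107296509-107296688, plus strand): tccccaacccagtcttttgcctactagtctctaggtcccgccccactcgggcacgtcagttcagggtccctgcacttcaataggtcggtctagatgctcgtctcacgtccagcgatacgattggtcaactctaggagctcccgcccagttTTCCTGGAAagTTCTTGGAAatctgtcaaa
Socs1, -150 to -1 (chr16:10785537-10785686, minus strand): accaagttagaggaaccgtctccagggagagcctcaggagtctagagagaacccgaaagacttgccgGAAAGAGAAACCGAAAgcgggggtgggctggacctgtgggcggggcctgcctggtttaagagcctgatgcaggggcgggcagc
Stat2, -250 to -151 (chr10:128270248-128270347, plus strand): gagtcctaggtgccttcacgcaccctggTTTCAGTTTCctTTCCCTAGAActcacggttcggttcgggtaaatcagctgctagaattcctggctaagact
The loose NF-kB form was in the windows of all 8 members with a window and in 50.8% of all windows.

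Ordered by log2 difference, the members ran Cish, Stat5a, Jak2, Stat2, Socs2, Stat6, Jak1, Tyk2 and Socs1. Stat2, Socs2 and Stat6 could not be ordered, since Stat2 and Socs2 lay 0.058 ± 0.067 apart and Socs2 and Stat6 0.0051 ± 0.067 apart. Every other neighbouring gap was larger than the spread between spots, 2 of them by little. Stat5a and Jak2 lay 0.085 ± 0.055 apart and Jak2 and Stat2 0.074 ± 0.055, so their order is also unsure. Among all 20394 measured genes, Cish was the 564th highest and Socs1 the 366th lowest. Stat5a had 4.42% of measured genes above it, Jak2 had 5.83%, Stat2 had 7.60%, Socs2 had 9.39% and Stat6 had 9.63%. Jak1 lay near the middle, with 54.8% of genes below it, and Tyk2 had 21.8% below it. The place of Stat6 rests on its brightest probe, and with the median over probes 18.4% of measured genes were above it, while Stat2 and Socs2 had 7.47% and 9.02%. With no background filter, which adds dim genes, Stat6 had 13.1% above it, Socs2 12.9% and Stat2 11.4%.

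**Figure D4:**
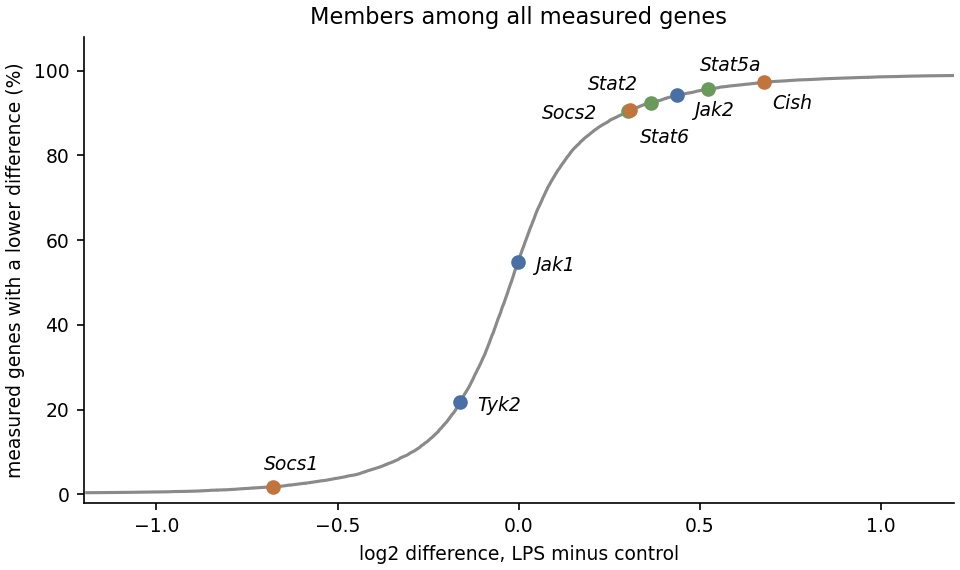
Cumulative share of the 20394 measured genes (grey line) against the log2 difference, LPS minus control, drawn from -1.2 to 1.2, with the 9 members marked. Cish, Stat5a, Jak2, Stat2, Socs2 and Stat6 (on its brightest probe, 18.4% with the median over probes) lie where under 10% of genes are higher, Jak1 near the middle, Tyk2 below it and Socs1 at the lower end.

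Of 9 other JAK, STAT and SOCS genes, 8 were measured and none was 1.5-fold higher or lower, with a median of 0.07. Socs3, the inhibitor of gp130 receptors, was highest at 0.35 ± 0.027 and Jak3, the kinase of the common gamma chain, followed at 0.22 ± 0.063. Stat3 was at 0.09 ± 0.027. Socs4, Socs5, Socs6 and Socs7 lay between -0.02 and 0.04. Stat4 was well above background on neither array, with 1 probe.

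Upstream, 30 of 41 genes of JAK-coupled receptor subunits were measured, of which 2 were at least 2-fold higher, none 2-fold lower and 28 neither, with a median of 0.17. Osmr, the oncostatin M receptor chain that uses JAK1, JAK2 and TYK2, was at 2.31 ± 0.036, and Il22ra1, the interleukin-22 receptor chain of epithelium, at 1.45 ± 0.15, but 0.73, under 2-fold, with normexp. The lowest were Csf2rb2 and Il12rb2 at -0.24 ± 0.15 each. Csf2ra, the ligand-binding chain of the GM-CSF receptor, passed the background flag only on the LPS array and was at least 5.62-fold higher, a bound against the dimmest signal well above background on the control array. The interferon receptor subunits Ifngr2 and Ifnar2 and the STAT6-coupled Il4ra, chosen after their values were seen, were at 0.84, 0.82 and 0.86, though a further Il4ra probe gave 0.29. The partner subunits measured on both arrays differed less, with Ifngr1 at 0.41 ± 0.036, Ifnar1 at 0.12 ± 0.036 and Il13ra1 at 0.20 ± 0.063. For Il4ra this contrast rests on its brightest probe. Il2rg, another partner of Il4ra, passed the background flag only on the LPS array. It was 1.42-fold higher as measured, which is the ratio of its own signals and not a bound.

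Among 36 ligand genes on the array, 13 were measured, 2 were at least 2-fold higher and 11 neither, with a median of -0.02. Csf3 and Il6, whose products signal mainly through STAT3, were at 4.15 ± 0.063 and 3.07 ± 0.15, and at 3.39 and 2.35 with normexp. Il22 and Il15 were lowest at -0.28 each. On neither array were 22 of the ligand genes well above background, among them Il4 and Il13, which act through STAT6, Il2, Csf2, Gh and Prl, which act through STAT5, and Ifnb1, which acts through STAT2. Other ligands of the same STATs were measured, Il15 and Il3 for STAT5, with Il3 at -0.02 ± 0.15, and Ifnl3 for STAT2 at -0.18 ± 0.15.

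Of the other inhibitors of the pathway 12 of 14 were measured, with a median of -0.0036. Usp18, which displaces JAK1 from the type I interferon receptor, was 2-fold lower at -1.25 ± 0.063, so that it and Socs1, both restraints on interferon signalling, were the lowest inhibitor genes measured on both arrays. Pias3 followed at -0.31 ± 0.15, and the phosphatase gene Ptpn2 at 0.16 ± 0.036 and the adaptor gene Sh2b3 at 0.15 ± 0.047 were highest. The phosphatase gene Ptprc passed the background flag only on the control array and was at least 3.03-fold lower. Of 16 adaptors and partners, 1 was at least 2-fold higher, Sh2b2, whose product binds JAK2, at 2.14-fold (a log2 difference of 0.96 with normexp), and 15 were neither, with a median of 0.03. Sos1 was next at 0.28 ± 0.15, and Ndufa13 and Hsp90aa1 were lowest at -0.09 and -0.08. The 6 subunits of the ubiquitin ligases that SOCS proteins recruit were level, from Cul2 and Rnf7 at -0.02 each to Cul5 and Eloc at 0.03 and 0.04.

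Known targets of STAT5, STAT6 and the STAT2 complex ISGF3 showed no common direction, and targets of STAT3 were not listed. The STAT5 list leaves out Cish and Socs2, themselves induced by STAT5. Of its 14 measured genes none reached 1.5-fold, with a median of 0.04. They ran from Ccnd2 at -0.25 and Mcl1 at -0.18 to Ccnd3 at 0.30 and Id1 at 0.53. Thus Cish was higher than each of these 14 genes, and Socs2 was near Ccnd3. Of 9 measured STAT6 targets, which include Socs1 and Cish, Arg1 was 4.11-fold lower at -2.04 ± 0.15 (-1.18 with normexp), while Il4ra and Tgm2 were highest at 0.86 and 0.85, with a median of -0.09. Ccl17, 1.98-fold higher as measured, and Mrc1, at least 1.83-fold higher, passed the background flag only in LPS-treated cells. With the looser background flag 2 STAT6 targets were at least 2-fold higher. They need not be these 2 genes, since Ccl17 stood at 0.98, under 2-fold. Of 20 measured ISGF3 targets 1 was at least 2-fold higher, Zbp1 at 1.57 ± 0.063, 1 was 2-fold lower, Usp18, and 18 were neither. Their next highest and lowest were Parp14 at 0.87 and Oasl1 at -0.72, and the median was 0.12. Ifit3, at least 1.25-fold lower, and Mx2, 1.09-fold lower as measured, passed the background flag only in control cells.

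**Figure D5:**
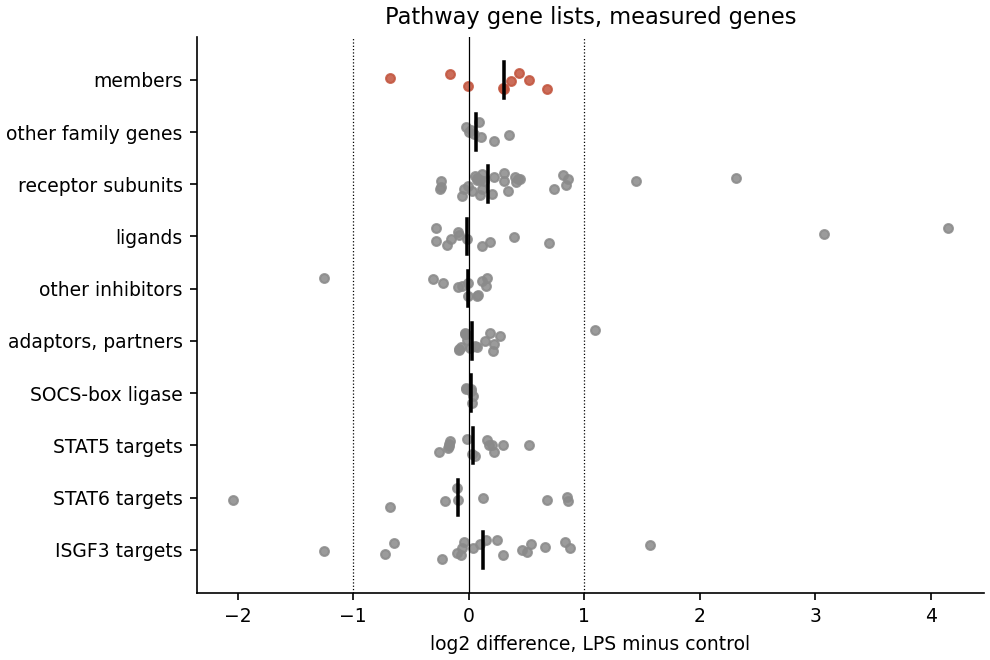
Log2 difference, LPS minus control, of each measured gene of the 9 members (red) and of the other pathway lists (grey), 1 point per gene with vertical jitter, the list median as a black bar and dotted lines at 2-fold. The members lie within 2-fold with a median of 0.31, and the ligand and receptor lists hold the points farthest to the right, Csf3, Il6 and Osmr.

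Markers of cell identity are given beside these results. The 8 measured epithelial markers were all below 0, from Vil1 at -0.72 to Cdh1 at -0.0068, with a median of -0.22 and a summed scaled intensity of 1163 in control cells and 1036 in LPS-treated cells. The 4 measured leukocyte markers had a median of 0.08 and sums of 15.9 and 16.8. Of these, Itgam stood at 0.09 on its brightest probe, but 2 further probes ran from -0.43 to -0.22. Csf1r stood at 0.06, with 2 further probes from 0.01 to 0.33. Ptprc passed the background flag only in control cells and Adgre1 only in LPS-treated cells. Of 6 fibroblast markers Col1a1 and Col1a2 were measured, with sums of 0.256 and 0.381, and of 5 endothelial markers Pecam1 and Kdr were, with sums of 8.36 and 8.63. Their part in the differences of the members was not tested.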

How the data were processed

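The data are 2 Agilent arrays of 1 dye (Cy3), 1 of control and 1 of LPS-treated CMT93 cells, assigned by sample title. Both samples carry 1 treatment text, whose dose and time were read as those of the LPS sample. Per the file headers, each deposited intensity was made with Agilent Feature Extraction 10.10.1.1, background-subtracted and detrended, and probe positions are in mm9.

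Control spots and 223 spots with an outlier flag on either array were left out, none of them of a member. Log2 intensity minus the 75th percentile of non-control spots was averaged over spots of a probe. A gene took its brightest probe among those well above background on both arrays. RefSeq accessions renewed the symbols (28026 of 55677 probes matched). Exon and UTR positions of probes were not analysed here. The error comes from 254 probes above background among 399 printed 10 times. Members, lists and the naming rule (list genes at 2-fold, and the 2 highest and 2 lowest) were chosen with earlier results of these data known. Some list genes are not reported here. Tools were Python 3.11.15, numpy 2.4.6, pandas 2.3.3, matplotlib 3.10.9, R 4.3.3 and limma 3.58.1.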

Additional observations from a re-analysis of the deposited data

How the results depend on the processing

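Over 9 alternatives (normexp with an offset of 50, floored background-subtracted signal, quantile, cyclic loess, median scaling, the percentile of detected probes, the median over probes, a looser background flag and no filter), no member reached 2-fold and the members' median stayed between 0.29 and 0.33. With normexp 1 member passed 1.5-fold in place of 2, since Socs1 moved to -0.49, and the cause was not tested. A change of background filter could not move the members, since all 14 member probes passed the strict flag. Nor could the median over probes move the 7 members with 1 probe. Of 81 values for single members, these fixed ones included, 78 moved by less than the repeated-spot SD. The others were that of Socs1, Jak2 at 0.41 with quantile normalization and Stat6 at 0.15 with the median over probes. Jak1 changed sign within its error, from -0.026 to 0.0082. Cish ranged from 0.64 to 0.71. The median of all genes moved by at most 0.067. Of 234 counts on other lists 16 changed by over 1.5 times or to or from 0, and Sh2b2 with normexp was under 2-fold. No paired analysis was possible because each group has 1 array.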

Other observations

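Some genes of the pathway lists, singled out after their values were seen, had probes that disagreed. Il4ra stood at a log2 difference of 0.86 on its brightest probe and at 0.29 on the other. Ptpn1, a phosphatase gene acting on JAK2 and TYK2, stood at 0.12, with 2 further probes from -0.27 to -0.16. Ptpn2 stood at 0.16, with 2 further probes from -0.06 to 0.26. Cblb, a ubiquitin ligase gene, stood at -0.0033 and at 0.31 on a further probe. Pias1 was below 0 on all 3 of its probes, from -0.30 to -0.22.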
